A study of Mus musculus with 4 samples.

Results

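The genes described here encode the constitutive proteasome and its activators in mouse. They are all gene symbols of the count tables that begin with Psma, Psmb, Psmc, Psmd or Psme followed by a digit, without the 3 immunoproteasome genes Psmb8, Psmb9 and Psmb10. The rule used names and no measured value, and it found 42 of the 27998 genes listed. By role they are 8 core alpha subunits, 8 core beta subunits, 6 ATPases of the regulatory cap, 11 other cap subunits, 3 cap assembly chaperones and 5 activators. The last, Psmc3ip, matches by name only: it encodes a cofactor of meiotic recombination and no subunit.

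The proteasome is the barrel-shaped protease that degrades ubiquitin-tagged proteins. Its core is built of stacked alpha and beta rings. The beta subunits Psmb5, Psmb6 and Psmb7 carry the proteolytic sites, and in immune cells and after interferon they are replaced by Psmb8, Psmb9 and Psmb10. The 19S cap docks on the alpha ring, binds ubiquitin chains, removes them and unfolds the substrate with its ring of ATPases. Psme1 and Psme2 form the ring of the interferon-inducible PA28 activator, which opens the core without ATP and is known for its part in making peptides for MHC class I. Psme3 encodes the nuclear PA28 gamma and Psme4 the PA200 activator.

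The data are 3′ single-cell RNA libraries made with droplets (10x Genomics), 1 library for each of the groups Ac, C, aC+C and IgG. The titles call them tumour-infiltrating immune cells and do not spell out the group names, the tumour or any agent. IgG is taken as the reference because an immunoglobulin without a named target usually serves as one. All groups carry the same other labels: an age of 6-8 weeks, entered under genotype, the cell type goblet cells, and a protocol that isolates epithelium from RedMUC298trTg mice, so no label tells the groups apart beyond the title. Cells of each library come from 1 preparation, and how many animals were pooled is not given in the sources used here.

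After filtering, 4028 barcodes of Ac, 4210 of C, 4081 of aC+C and 3436 of IgG had at least 1000 UMIs (unique molecular identifiers, each 1 counted transcript molecule) and at most 10% mitochondrial UMIs, beside a stated loading target of about 5000 cells per sample. Their median depth was 10492, 10762, 10671 and 11594.5 UMIs in the same order. Between 2 and 7 barcodes were shared by any pair of libraries. The data go against the label goblet cells: the mucin gene Muc2 had 2 to 4 UMIs in a whole library and the goblet genes Clca1 and Spink4 had 0, while the leukocyte gene Ptprc (CD45) had 28671 to 39740. Cells were therefore gated by lineage marker UMIs, and 18.1% to 33.3% of the barcodes in a library stayed ungated. A check list of dendritic-cell markers (H2-Aa, H2-Ab1, Cd74, Flt3 and Zbtb46 summed) had 174 to 1007 counts per 1000000 UMIs (CPM) in non-cycling CD8 T cells. It had 174 and 254 CPM in aC+C and Ac and 925 and 1007 CPM in C and IgG, and its part in the values below was not tested. Other T-cell genes (Lck, Cd2, Cd5, Trbc2 and Cd28 summed) had 902 to 1073 CPM in CD8 T cells, 404 to 442 CPM in NK cells and 2 to 9 CPM in myeloid and stromal cells. No doublet caller was run. The gates limited the UMIs of some markers of other lineages, to 2 myeloid ones in T and NK cells for example. The T-cell gates set no limit on NK markers, and the stromal gate none on NK or B-cell markers.

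The members took 0.694% of all UMIs in the kept barcodes. Psma8, the testis form of an alpha subunit, had 109 UMIs in all and Psmb11, the thymus form of a catalytic beta subunit, had 7. Neither passed the filter on low counts, so 40 members entered the tests. Psme1 was the highest at 537 CPM. The 40 members were also present among barcodes of 1 to 50 UMIs, which mostly hold free RNA: their level in the kept barcodes over that in this background had a median of 1.07 and ranged from 0.891 to 1.72. Shares of cells with a UMI are for this reason not used, and levels are CPM of UMIs summed over the cells of a library. Transcripts are counted at one end, so CPM is not scaled by length, and 2 genes may differ in capture.

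Promoter windows of 300 bases (250 before and 50 after the annotated start) from RefSeq, build GRCm38.p6, were matched for 35 of the 42 members. Psmb7, Psmc3, Psmb2, Psmd7, Psmd3, Psmb1 and Psma8 had no entry. The antioxidant response element core TGACNNNGC, the letters that the transcription factors Nfe2l1 and Nfe2l2 are known to bind, was searched on both strands and found in 6 of the 35 (17.1%), against 13.99% of 27025 genes with a window. The letters TTCNNTTTC of an interferon-stimulated response element were in 6 members (17.1%), against 9.76% of those genes, and CCAAT was in 14 (40%), against 41.1%. These matches are letters only. The windows below belong to 2 catalytic subunits that were higher in cycling CD8 T cells and to the activators Psme4, Psme1 and Psme2, which were not (for Psme2, 1 of its 2 windows). A TGACNNNGC or TTCNNTTTC match is in capitals, and no window shown holds both.
Psmb5, chr14:54617946-54618245, minus strand: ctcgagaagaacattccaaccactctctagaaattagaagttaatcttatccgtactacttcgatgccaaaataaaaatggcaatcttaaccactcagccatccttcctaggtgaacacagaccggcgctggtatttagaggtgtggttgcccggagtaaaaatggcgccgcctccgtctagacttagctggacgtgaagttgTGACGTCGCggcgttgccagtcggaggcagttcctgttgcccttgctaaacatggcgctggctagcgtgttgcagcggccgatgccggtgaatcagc
Psmb6, chr11:70525107-70525406, plus strand: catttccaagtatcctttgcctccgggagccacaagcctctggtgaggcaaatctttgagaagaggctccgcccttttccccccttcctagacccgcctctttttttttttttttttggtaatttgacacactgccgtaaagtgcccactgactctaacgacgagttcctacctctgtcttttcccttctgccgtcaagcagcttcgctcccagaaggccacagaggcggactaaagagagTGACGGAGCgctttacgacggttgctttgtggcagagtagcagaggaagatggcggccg
Psme4, chr11:30771525-30771824, plus strand: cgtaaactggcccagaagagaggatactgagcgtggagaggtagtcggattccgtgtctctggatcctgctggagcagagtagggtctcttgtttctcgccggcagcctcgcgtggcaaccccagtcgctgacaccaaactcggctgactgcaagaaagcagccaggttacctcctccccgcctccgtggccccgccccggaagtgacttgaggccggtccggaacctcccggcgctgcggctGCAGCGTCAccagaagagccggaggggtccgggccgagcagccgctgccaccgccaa
Psme1, chr14:55578244-55578543, plus strand: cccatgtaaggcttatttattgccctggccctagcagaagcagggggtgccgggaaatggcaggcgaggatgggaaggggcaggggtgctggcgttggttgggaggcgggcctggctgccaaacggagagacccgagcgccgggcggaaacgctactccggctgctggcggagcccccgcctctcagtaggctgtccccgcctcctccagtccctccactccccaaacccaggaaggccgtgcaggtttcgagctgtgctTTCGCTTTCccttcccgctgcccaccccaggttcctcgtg
Psme2, chr14:55590972-55591271, minus strand: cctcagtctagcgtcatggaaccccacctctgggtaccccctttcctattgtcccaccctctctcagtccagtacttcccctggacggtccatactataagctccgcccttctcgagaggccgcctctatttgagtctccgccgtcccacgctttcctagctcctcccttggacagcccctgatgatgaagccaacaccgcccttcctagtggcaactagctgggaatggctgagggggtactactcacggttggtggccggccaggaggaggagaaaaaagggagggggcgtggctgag
The TGACNNNGC match lay 47 bases before the start in Psmb5, 9 before it in Psmb6 and 7 before it, on the opposite strand, in Psme4. The TTCNNTTTC match of Psme1 lay 11 bases after its start, and the Psme2 window held neither. Psmd9, Psmc6 and Psmd12 held the other TGACNNNGC matches. Psmb3, Psmb4, Psmc2, Psmd4 and Psmd9 held the other TTCNNTTTC matches.

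On the CPM scale, which divides by total UMIs, non-cycling stromal cells had the highest core and cap sums, and the activator sum was highest in dendritic and regulatory T cells. Non-cycling cells had fewer than 2 UMIs per 10000 from 20 G2M genes and fewer than 5 from 17 S-phase genes. Summed over all 42 members, NK cells had 5394 ± 159 CPM, regulatory T cells (Foxp3 positive) 6334 ± 239, CD4 T cells 5638 ± 136, monocytes or macrophages 5814 ± 234, Dcn-positive stromal cells 6674 ± 411 and CD8 T cells 5880 ± 185 (SD, n = 4 libraries each). The core alpha sums were 1446 ± 29 CPM in NK cells, 1718 ± 104 in regulatory T cells, 1682 ± 79 in monocytes or macrophages, 1902 ± 95 in stromal cells and 1572 ± 59 in CD8 T cells. In the order of these totals each gate overlapped its neighbours over the 4 libraries. NK cells (5290 to 5628 CPM) and stromal cells (6254 to 7213 CPM) at the ends did not overlap. Gates with fewer libraries lay outside them: migratory dendritic cells, with 2, had 7325 and 7362 CPM, and B cells, with 1, had 4608 CPM. These differences were not tested as sums, and the order depends on the scaling: with edgeR's TMM factors, stromal over CD8 T cells gave a median log2 fold change of -0.07 over the core beta subunits, 0.08 over the alpha subunits and 0.01 over the cap subunits other than ATPases, with members called in both directions in each group.

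The activator sum was 2721 and 2759 CPM in migratory dendritic cells (gated on Ccr7 and Fscn1), which reached 30 cells in 2 libraries only, Ac and IgG. It was 1295 ± 73 CPM in regulatory T cells, 940 ± 18 in NK cells, 992 ± 109 in CD4 T cells, 1021 ± 60 in monocytes or macrophages, 884 ± 56 in stromal cells and 991 ± 52 in CD8 T cells (SD, n = 4). In migratory dendritic cells Psme1 averaged 1388 CPM and Psme2 1285 CPM, against 568 and 335 CPM in CD8 T cells, while their core beta sum was 1375 CPM against 1699 CPM in CD8 T cells. The activator values of the dendritic gate were above those of all other gates and its core beta values below those of CD8 T cells. These sums were given no test. B cells reached 30 cells in aC+C only, with an activator sum of 615 CPM.

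**Figure D1:**
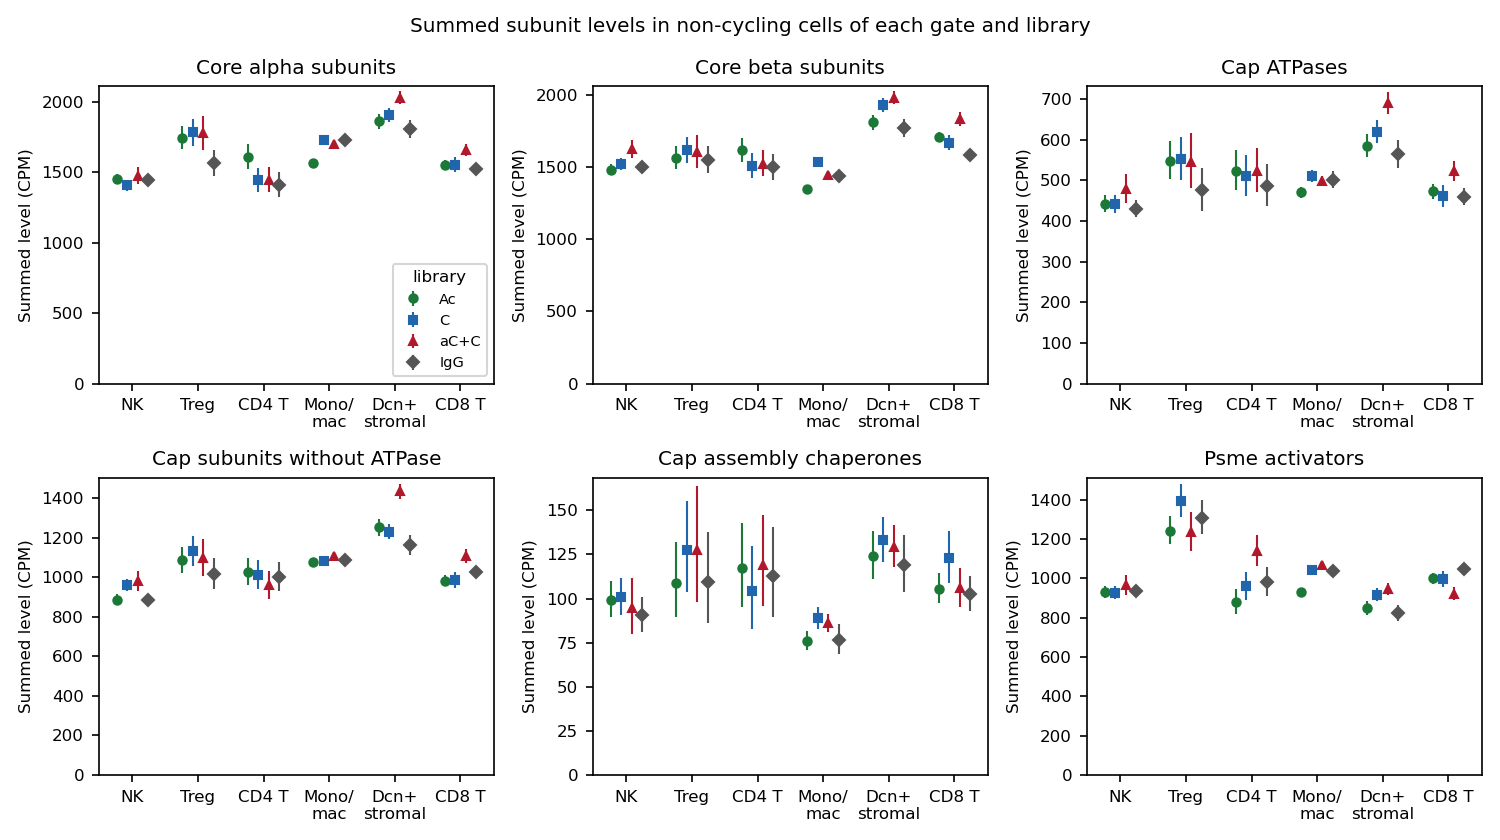
Summed level (CPM, vertical axes from 0) of each group of members in non-cycling cells of 6 gates, with 1 point per library and its exact 95% Poisson counting interval. On this scale stromal cells lie highest for the core and cap sums, and regulatory T cells, at 1295 CPM on average, lie highest for the Psme activators.

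The 14 core subunits are held at equal numbers in a finished particle without immunoproteasome subunits, and their transcripts were not. Psmb5, Psmb6 and Psmb7 share their places with Psmb8, Psmb9 and Psmb10, which are left out here. Equal levels therefore need not hold for Psmb5, Psmb6 and Psmb7. In CD8 T cells Psmb7 was lowest at 101 CPM and Psmb1 highest at 467 CPM, a ratio of 4.62. The coefficient of variation between the 14 subunits was 31.3% to 44.2% in the 6 gates with 4 libraries, whereas a subunit varied between libraries by a median of 5.26% to 10.4%. Psmb7 was the lowest in each of these gates but the stromal one, where Psma1 was lowest at 91.3 CPM. Psmb1 was the highest in each but monocytes or macrophages, where Psma7 was highest at 395 CPM. The order of the genes may hold differences in capture, which were not tested.

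Outside B cells, the immunoproteasome member of each catalytic pair held the larger share of UMIs, other than Psmb9 in stromal cells, whose share was near equal. Psmb8 made up 81.6% to 85.7% of Psmb8 and Psmb5 together in CD8 T cells and 77.9% to 80.2% in NK cells. Its share was 79.6% to 80.2% in monocytes or macrophages, 77% to 79% in stromal cells and 89.2% and 90.7% in migratory dendritic cells. The 95% exact (Clopper-Pearson) interval was 84.8% to 86.5% in the Ac CD8 T cells, the highest of that gate, and 80.4% to 82.7% in those of aC+C, the lowest, and such intervals cover counting error only. Psmb9 made up 71.9% to 77.5% of Psmb9 and Psmb6 in regulatory T cells, 56.3% to 60.9% in NK cells, 49.1% to 54% in stromal cells and 64.2% to 67.7% in CD8 T cells. Psmb10 made up 79.5% to 83.4% of Psmb10 and Psmb7 in stromal cells and 67.2% to 70.9% in CD8 T cells. The ranges of stromal and CD8 T cells thus lie apart for all 3 pairs, with the stromal share lower for Psmb8 and Psmb9 and higher for Psmb10.

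Cycling CD8 T, NK and stromal cells had more core and cap transcripts relative to other genes than non-cycling ones, whereas in monocytes or macrophages 10 of 40 members were higher and 5 lower. Psme1 was lower in the 3 immune gates tested. A cell was called cycling at 6 or more UMIs per 10000 from the 20 G2M genes, with at least 3 such UMIs; no member is among those genes. In CD8 T cells this set 265 cycling cells against 570 non-cycling in Ac, 150 against 243 in C, 294 against 368 in aC+C and 281 against 378 in IgG. Summed UMIs were compared with edgeR's quasi-likelihood test, library as a block, and called at a Benjamini-Hochberg adjusted p under 0.05 over all genes tested. The 4 libraries serve as replicates although each had its own treatment, so the p-values measure a spread between libraries that may be technical. In CD8 T cells 32 of 40 members were higher in cycling cells and 2 were lower, where 26.8% of the 9901 genes tested were called higher and 25.2% lower. The median log2 fold change of the members was 0.44, against -0.02 over all genes.

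**Figure D2:**
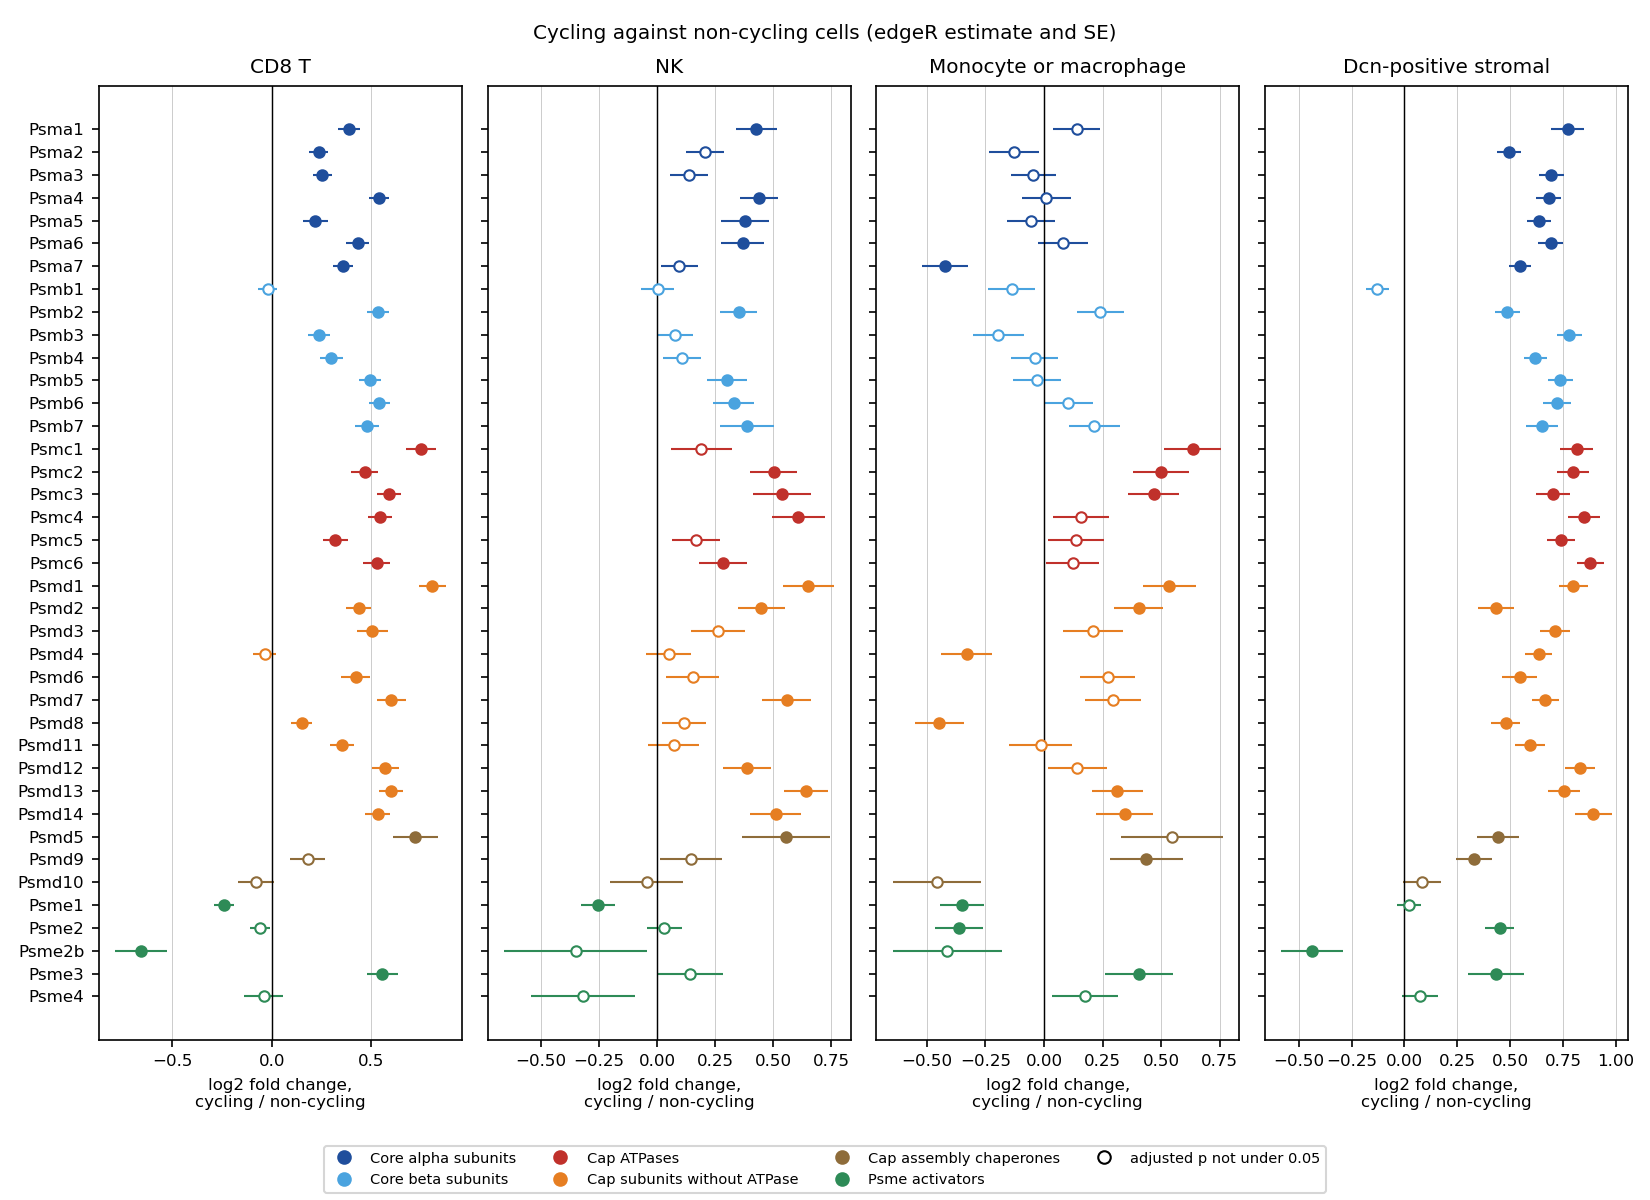
Log2 fold change of cycling over non-cycling cells (horizontal axes, edgeR estimate and SE) of the tested members other than Psmc3ip in 4 gates, coloured by role, with open points for members that did not pass. Psme2b lies left of 0 in all 4 panels and passed in CD8 T and stromal cells, and Psme1 lies left of 0 in 3 panels and at 0.02 in stromal cells.

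By role, all 7 tested alpha subunits, 6 of 7 beta subunits, all 6 ATPases and 10 of 11 other cap subunits were higher in cycling CD8 T cells, against 1 of 3 assembly chaperones and 1 of 5 activators. The ATPase sum was 1.39 to 1.45 times higher in cycling than in non-cycling CD8 T cells of the same library, the other cap sum 1.28 to 1.36 times and the beta sum 1.20 to 1.30 times. The alpha sum was 1944 to 2067 CPM in cycling cells, against 1522 to 1658 CPM in non-cycling cells. The activator sum was 0.847 to 0.951 times that of non-cycling cells in the 4 libraries. S-phase CD8 T cells below the G2M threshold had 7067 ± 114 CPM over all members. Cycling CD8 T cells had 7174 ± 219 CPM and non-cycling ones 5880 ± 185 CPM (SD, n = 4 for each).

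Among subunits the cap gene Psmd1, which encodes the largest scaffold of the cap base, changed most. It had 97.2, 102.8, 101.8 and 96.5 CPM in cycling CD8 T cells of Ac, C, aC+C and IgG, against 55.0, 56.5, 56.4 and 58.7 CPM in non-cycling cells. The groups did not overlap and each library showed the rise, a log2 fold change of 0.81 ± 0.07 (SE; edgeR adjusted p = 1.1e-08). Psmc1, an ATPase of the ring, had 65.3, 66.9, 75.5 and 72.5 CPM in cycling cells, against 39.1, 40.0, 45.4 and 41.8 CPM, a log2 fold change of 0.75 ± 0.07 (edgeR adjusted p = 1.1e-07). Psmd5, a cap assembly chaperone, rose by 0.72 ± 0.11 and the cap lid subunit Psmd7 by 0.60 ± 0.07, both in all 4 libraries without overlap. Psmc3ip, which is no subunit, rose most of the members, to 20.2 to 31.1 CPM in cycling cells against 1.45 to 3.20 CPM in non-cycling cells (log2 fold change 3.37 ± 0.18).

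The catalytic subunits rose together. Psmb5, the chymotrypsin-like subunit, had 264, 287, 309 and 285 CPM in cycling CD8 T cells of Ac, C, aC+C and IgG, against 186, 202, 234 and 191 CPM in non-cycling cells. Its lowest cycling value was above its highest non-cycling one, and aC+C was the highest library in both states (log2 fold change 0.49 ± 0.05, edgeR adjusted p = 3.3e-07). Psmb6, the caspase-like subunit, rose by 0.54 ± 0.05 and Psmb7, the trypsin-like subunit, by 0.48 ± 0.06. Their immunoproteasome counterparts did not move as one: Psmb9 rose by 0.21 ± 0.05, Psmb10 was lower by a log2 change of -0.25 ± 0.07 and Psmb8 did not pass the test.

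The activators parted by type. Psme1, PA28 alpha, had 450, 491, 475 and 514 CPM in cycling CD8 T cells of Ac, C, aC+C and IgG, against 580, 570, 535 and 588 CPM in non-cycling cells. It was lower in all 4 libraries with no overlap (log2 fold change -0.24 ± 0.05, edgeR adjusted p = 0.00049). Psme2, PA28 beta, had 297, 335, 316 and 343 CPM in cycling against 331, 345, 313 and 354 CPM in non-cycling cells; the groups overlapped and the difference did not pass the test (-0.06 ± 0.05, adjusted p = 0.34). Psme2b, a near copy of Psme2 whose reads the counting may split, had 10.8 to 12 CPM against 15.4 to 21.7 CPM (-0.66 ± 0.13). Psme3, the nuclear PA28 gamma, had 59.1, 64.3, 50.4 and 66.0 CPM in cycling cells, against 40.0, 39.5, 35.2 and 47.1 CPM, and rose without overlap (0.56 ± 0.08). Psme4 had 24.8 to 32.4 CPM against 22.2 to 37.4 CPM and did not pass (-0.04 ± 0.10). The dendritic-cell check list had 62.0, 1321, 81.7 and 1001 CPM in cycling CD8 T cells of Ac, C, aC+C and IgG. Non-cycling CD8 T cells had 254, 925, 174 and 1007 CPM of it. The part of that list in the activator levels was not tested.

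**Figure D3:**
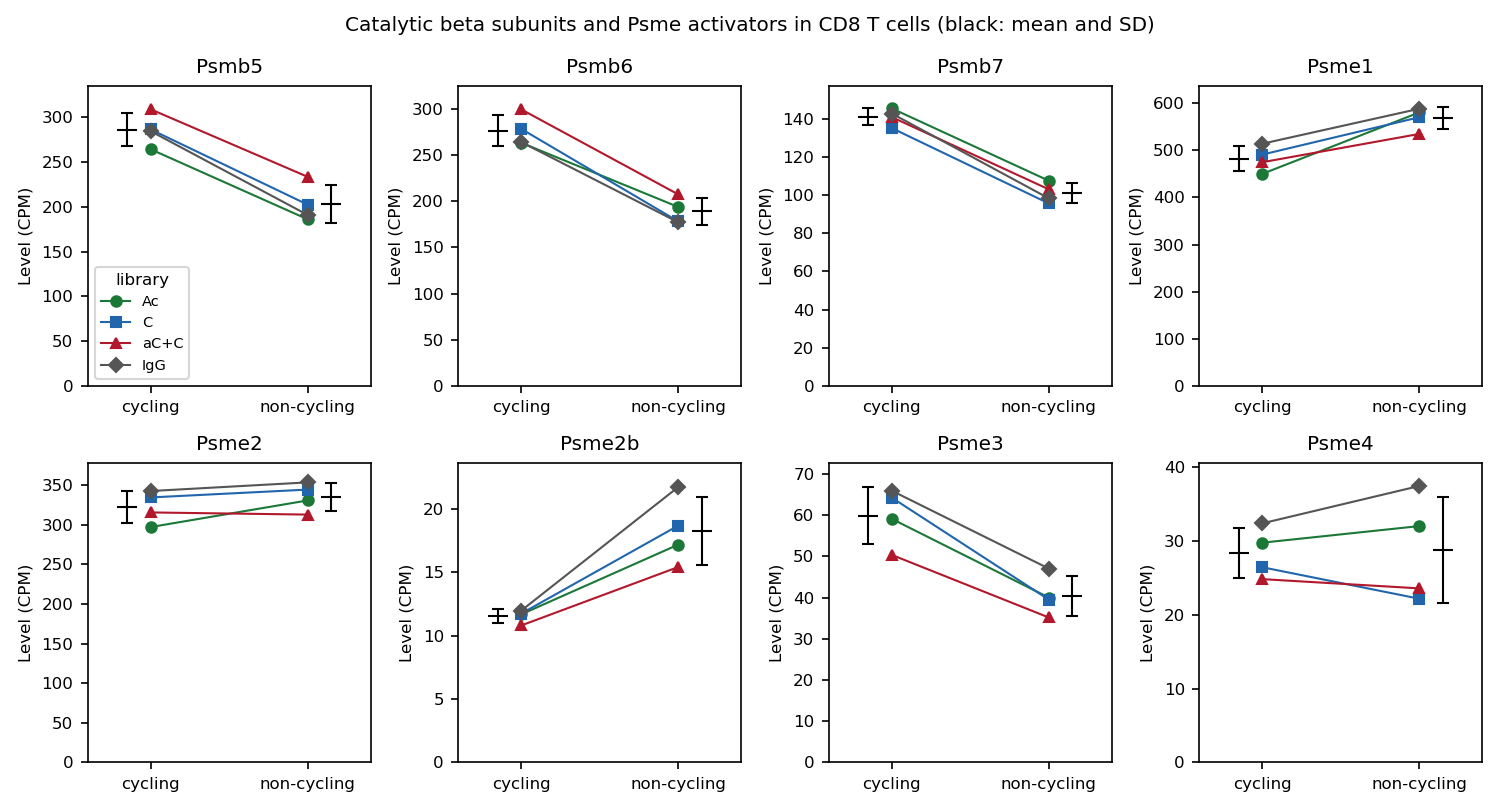
CPM (vertical axes from 0) of the 3 catalytic beta subunits and the 5 activators in cycling and non-cycling CD8 T cells, with lines joining the states of a library and the mean and SD in black. Psmb5, Psmb6, Psmb7 and Psme3 lie higher in every cycling library than in any non-cycling one, Psme1 and Psme2b lie lower, and Psme2 and Psme4 overlap.

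The 6 other tested members passed in neither direction in CD8 T cells: Psme2, Psme4, the cap assembly chaperones Psmd9 and Psmd10, Psmb1 and the ubiquitin receptor Psmd4. Psmb1 had 459, 463, 475 and 446 CPM in cycling cells, against 486, 465, 484 and 434 CPM in non-cycling cells (-0.02 ± 0.05). Psmd4 had 127 to 148 CPM in cycling cells, against 136 to 143 CPM (-0.04 ± 0.06). Both overlapped between states.

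Cycling cells also held more RNA in all. Their median depth was 19685 to 21247 UMIs in CD8 T cells, against 8322 to 9559 in non-cycling cells, and 4.49% to 8.17% of CD8 T cells lay near the threshold, at 4 to 8 G2M UMIs per 10000. With cells of 10000 to 30000 UMIs only, a comparison added after the data were seen, 28 members were higher and 1 was lower in CD8 T cells, 29 of the 34 calls were made again, and the median log2 fold change was 0.31.

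NK cells (gated on Ncr1, Klrb1c and Klre1, with at most 1 UMI of Cd3d, Cd3e and Cd3g) also had higher core and cap subunits when cycling. The difference of the cycling effect from that in CD8 T cells, tested as an interaction added after the data were seen, passed for 1 of 40 members, Psmc1 (-0.59 ± 0.14, edgeR adjusted p = 0.037), where 0.537% of 11929 genes passed as lower and 0.537% as higher. A single member is near that share. With 27, 52, 21 and 51 cycling cells in Ac, C, aC+C and IgG, 20 of 40 members were higher and 1 was lower, where 18.9% of 7738 genes were called higher and 17.1% lower, and the members' median log2 fold change was 0.27. Psmd1 had 105, 79.0, 88.1 and 94.9 CPM in cycling NK cells, against 60.1, 58.7, 45.6 and 55.2 CPM in non-cycling cells. No value overlapped (0.65 ± 0.11, edgeR adjusted p = 0.00012). The cap subunit Psmd13 rose by 0.64 ± 0.09, the ATPase Psmc4 by 0.61 ± 0.11, Psmd7 by 0.56 ± 0.11 and Psmc3ip by 3.48 ± 0.28. Psmb5 rose by 0.30 ± 0.09, Psmb6 by 0.33 ± 0.09 and Psmb7 by 0.39 ± 0.12; the call of Psmb5 was lost without IgG, that of Psmb6 without C and that of Psmb7 without C or without IgG.

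Psme1 was the member lower in cycling NK cells, with 492, 567, 443 and 529 CPM against 592, 569, 583 and 575 CPM. It was lower in 4 of 4 libraries, in C only slightly, without overlap, and the call (-0.26 ± 0.07, adjusted p = 0.011) was lost without Ac or without aC+C. Psme2 (0.03 ± 0.08), Psme2b (-0.35 ± 0.31), Psme3 (0.14 ± 0.14) and Psme4 (-0.32 ± 0.23) did not pass, nor did Psmd10 (-0.04 ± 0.16) and Psmb1 (0.00 ± 0.07). With cells of 10000 to 30000 UMIs, 12 members were higher and 1 was lower. The dendritic-cell check list had 114, 1245, 51.7 and 1927 CPM in cycling NK cells of Ac, C, aC+C and IgG. Non-cycling NK cells had 376, 182, 85.2 and 151 CPM of it. The part of that list in the Psme1 levels of NK cells was not tested.

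In monocytes or macrophages (gated on myeloid markers such as Csf1r, Adgre1 and Cd14) some cap genes were called higher in cycling cells. No core gene was called higher. On the CPM scale the core beta sum was 1.05 to 1.13 times that of non-cycling cells of the same library, and the alpha sum 0.917 to 1.07 times. Cycling monocytes or macrophages numbered 40, 36, 41 and 9 in Ac, C, aC+C and IgG. Of 40 members 10 were higher and 5 were lower, where 16.1% of 9210 genes were called higher and 14.8% lower, with a median log2 fold change of 0.14. Scaled by total UMIs alone, without edgeR's TMM factors, all genes shifted up to a median of 0.12 against -0.01, 68.7% instead of 52.1% of the calls were higher, and the members gave 17 higher and 2 lower. Without any 1 of Ac, C or aC+C, 5 or 6 members were higher and 2 or 3 lower, and with cells of 10000 to 30000 UMIs 2 were higher and 4 lower.

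Of the 6 ATPases 3 rose in these cells, and of the 14 core subunits 0 rose and 1 fell. The cycling effect differed from that in CD8 T cells for 8 of 40 members, all lower, where 3.72% of 11929 genes passed as lower and 3.66% as higher; among them were Psma7 (-0.76 ± 0.10, edgeR adjusted p = 9.1e-06), Psmb5 (-0.50) and Psmb6 (-0.41). Psmc1 had 74.0, 98.1, 98.1 and 90.5 CPM in cycling cells of Ac, C, aC+C and IgG, against 46.3, 53.7, 56.9 and 60.9 CPM in non-cycling cells, without overlap (0.63 ± 0.12, edgeR adjusted p = 0.00042). Psmd1 rose by 0.54 ± 0.11, Psmc2 by 0.50 ± 0.12 and Psmc3 by 0.47 ± 0.11, and Psmc3ip by 3.50 ± 0.35; Psmd5 had a log2 fold change of 0.55 ± 0.22 that did not pass (adjusted p = 0.063). The alpha subunit Psma7 had 316, 351, 308 and 302 CPM in cycling cells, against 355, 409, 417 and 402 CPM in non-cycling cells, and was lower without overlap (-0.42 ± 0.10, adjusted p = 0.0026). The cap subunits Psmd8 (-0.45 ± 0.10) and Psmd4 (-0.33 ± 0.11) were lower too. Psmb5 (-0.03 ± 0.10), Psmb6 (0.10 ± 0.11) and Psmb7 (0.22 ± 0.11) did not pass.

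Both PA28 genes were lower in cycling monocytes or macrophages, by a log2 fold change of -0.35 ± 0.09 for Psme1 and -0.36 ± 0.10 for Psme2. Psme1 had 417, 458, 492 and 604 CPM in cycling cells, against 521, 576, 572 and 571 CPM; IgG, with 9 cycling cells, went the other way. Psme2 had 260, 265, 321 and 392 CPM against 302, 359, 388 and 358 CPM, again higher in IgG. The Psme1 call was lost without Ac or without C, the Psme2 call without Ac, C or aC+C, and both under scaling by total UMIs alone. Psme3 rose by 0.41 ± 0.15 (adjusted p = 0.042), a call lost without any 1 of Ac, C and aC+C, while Psme4 (0.18 ± 0.14), Psme2b (-0.41 ± 0.23) and Psmd10 (-0.46 ± 0.19) did not pass.

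Stromal cells, gated on Dcn and collagen genes with at most 1 Ptprc UMI, had the largest number of members higher in cycling cells. For 12 of 40 members the cycling effect was higher than in CD8 T cells, where 9.1% of 11929 genes passed as higher and 9.42% as lower, by most for Psmd4 (0.66 ± 0.09, edgeR adjusted p = 2.4e-06), Psmb3 (0.53) and Psme2 (0.50). With 65, 50, 119 and 41 cycling cells against 76, 108, 101 and 58 non-cycling, 35 of 40 members were higher and 1 was lower, where 30.3% of 10011 genes were called higher and 31.2% lower. The members' median log2 fold change was 0.66, and their sum was 9598 ± 322 CPM in cycling cells against 6674 ± 411 CPM in non-cycling cells (SD, n = 4). Psmd14, the deubiquitinase of the cap, had 149, 114, 144 and 120 CPM in cycling cells of Ac, C, aC+C and IgG, against 68.1, 69.2, 89.5 and 61.8 CPM, without overlap (0.89 ± 0.09, edgeR adjusted p = 4.2e-07). The ATPases Psmc6 (0.88 ± 0.06), Psmc4 (0.85 ± 0.08) and Psmc1 (0.81 ± 0.08) and the lid subunit Psmd12 (0.83 ± 0.07) followed, and Psmc3ip rose by 3.38 ± 0.19.

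Psmb5 had 317, 325, 334 and 347 CPM in cycling stromal cells, against 189, 206, 214 and 205 CPM in non-cycling cells (0.74 ± 0.06). Psmb6 rose by 0.72 ± 0.07 and Psmb7 by 0.65 ± 0.08, so all 3 catalytic subunits rose without overlap between states. Psme2 rose by 0.45 ± 0.07 and Psme3 by 0.43 ± 0.13, and the Psme3 call was lost without Ac or without aC+C. Psme1 (0.02 ± 0.06), Psme4 (0.07 ± 0.09), Psmd10 (0.08 ± 0.09) and Psmb1 (-0.13 ± 0.06, adjusted p = 0.057) did not pass. Psme2b was lower (-0.44 ± 0.15), a call lost without any 1 of Ac, C and aC+C.

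The states of this gate differed in more than the cell cycle. Dcn itself had 881 to 937 CPM in cycling cells, against 3557 to 5032 CPM in non-cycling cells. Tm4sf1 had 1050 to 1335 CPM, against 355 to 590 CPM, and Hmga2 216 to 306 CPM, against 109 to 143 CPM. Hmga2 and Tm4sf1 with little Dcn defined a separate mesenchymal gate, so the stromal gate may hold cells of that kind too. Median depth was 60661.5 to 70913 UMIs in cycling cells, against 29770 to 35132 in non-cycling ones. The part of cell kind and depth in the rise was not tested: with cells of 10000 to 30000 UMIs only 3 to 5 cycling cells a library were left, 3 members were called higher and the median log2 fold change of the members was 0.60.

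In cycling CD8 T cells, where 26.8% of all genes were called higher, other genes of the pathway were set beside the members. Of the core assembly chaperones 4 of 5 rose, Psmg2 by 0.62 ± 0.11 and Pomp by 0.24 ± 0.05. Of the regulators bound to the proteasome 3 of 4 rose: the deubiquitinases Uchl5 by 1.34 ± 0.08 and Usp14 by 0.80 ± 0.08, and the inhibitor Psmf1 by 0.38 ± 0.10. Uchl5 also rose in NK cells (1.03 ± 0.11), monocytes or macrophages (1.02 ± 0.15) and stromal cells (1.82 ± 0.10). Of the 8 shuttle and segregase genes, which bring ubiquitinated proteins to the particle, 5 rose, Vcp by 0.34 ± 0.05. Of the 2 cap subunits without a Psm name, Adrm1 rose by 0.29 ± 0.08.

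Of the 4 transcription genes 0 rose in cycling CD8 T cells and Nfe2l2 was lower (-0.68 ± 0.13).

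Non-cycling cells of 5 gates were set against those of CD8 T cells in 1 edgeR fit of 11444 genes. In NK cells 2 members were higher and 2 lower, where 13.4% of the genes were called higher and 14.8% lower. In regulatory T cells 2 were higher and 4 lower (13.3% and 12.1% of genes), in CD4 T cells 1 and 8 (9.06% and 8.55%), in monocytes or macrophages 16 and 3 (35.2% and 34%) and in stromal cells 13 and 15 (35.8% and 38.1%). The fold changes are relative to the TMM scaling. Scaling by total UMIs alone moved the median of all genes to -0.17 against -0.04 in NK cells, 0.17 against -0.02 in regulatory T cells, 0.08 against -0.02 in CD4 T cells, -0.07 against 0.01 in monocytes or macrophages and 0.16 against -0.06 in stromal cells. The members then gave 1 higher and 9 lower in NK cells, 7 and 1 in regulatory T cells, 2 and 2 in CD4 T cells, 11 and 8 in monocytes or macrophages and 20 and 7 in stromal cells. The share of all calls that were higher became 28.8% instead of 47.4% in NK cells, 74.8% instead of 52.3% in regulatory T cells, 68.7% instead of 51.4% in CD4 T cells and 58.6% instead of 48.5% in stromal cells, so counts by direction in these gates depend on the scaling. Leaving out a library moved some counts by over 1.5 times: members lower in regulatory T cells were 2 without Ac, 7 without C and 2 without aC+C, members lower in CD4 T cells were 3 without Ac and 4 without aC+C, members higher in monocytes or macrophages were 10 without C, and members lower in stromal cells were 9 without IgG. In NK cells 1 member was lower without Ac or without IgG, and 1 was higher without C or without aC+C.

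**Figure D4:**
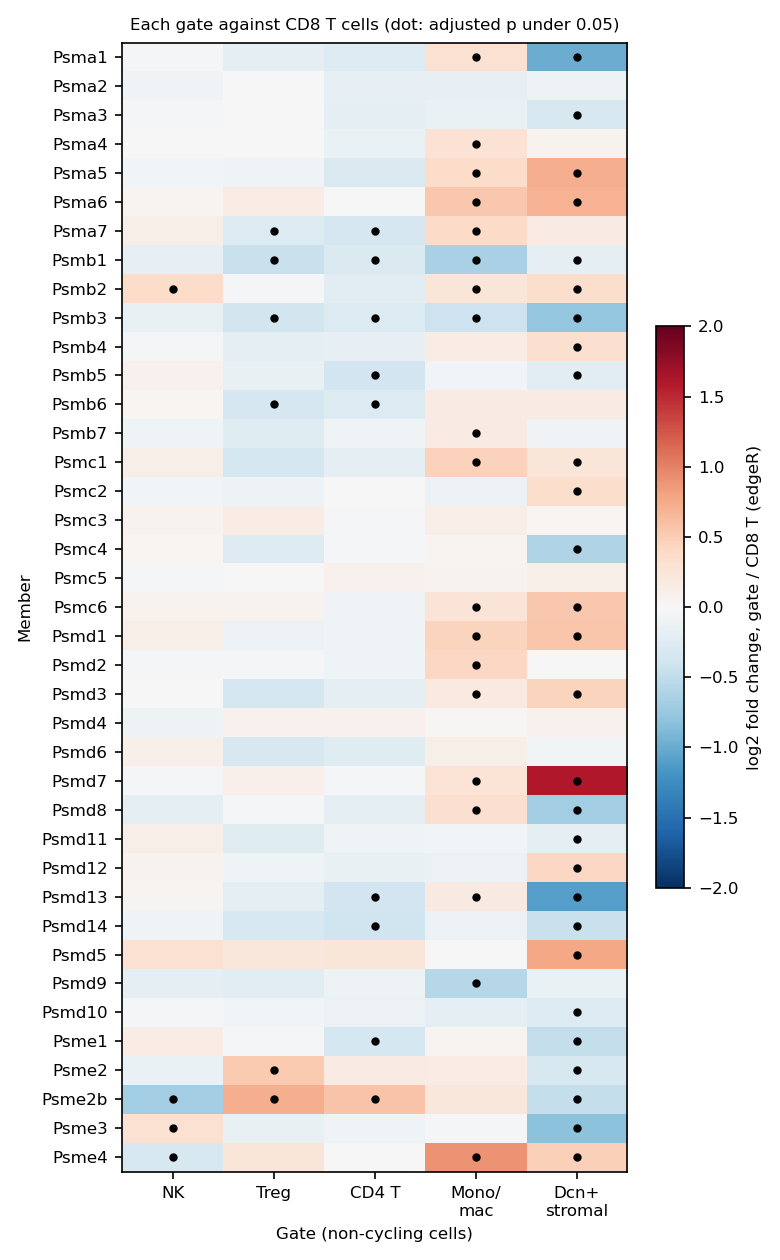
Log2 fold change of the tested members other than Psmc3ip (rows, grouped by role) in non-cycling cells of 5 gates over CD8 T cells, with colour for the size and a dot for each call. Psme2 and Psme2b stand out in regulatory T cells, Psme4 in monocytes or macrophages (0.91), and Psmd7 (1.60) and Psmd13 (-1.11) in stromal cells.

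In regulatory T cells Psme2 had 532, 537, 528 and 595 CPM in Ac, C, aC+C and IgG, against 331, 345, 313 and 354 CPM in CD8 T cells. The lowest regulatory T-cell value was above the highest CD8 T-cell value (log2 fold change 0.52 ± 0.09, edgeR adjusted p = 0.00012). Psme2b had 26.8 to 40.4 CPM, against 15.4 to 21.7 CPM in CD8 T cells (0.73 ± 0.17). Psme1, its partner in the PA28 ring, did not pass (-0.04 ± 0.09), nor did Psme3 (-0.14 ± 0.15) and Psme4 (0.24 ± 0.15). The beta subunit Psmb1 was lower, with 411, 382, 408 and 367 CPM against 486, 465, 484 and 434 CPM (-0.44 ± 0.07), as were Psmb3 (-0.37 ± 0.09), Psmb6 (-0.33 ± 0.09) and Psma7 (-0.27 ± 0.08), of which the last 3 lost their calls under scaling by total UMIs. Psmb5 (-0.15 ± 0.09), Psmb7 (-0.25 ± 0.10), Psmd3 (-0.36 ± 0.14), Psmc1 (-0.35 ± 0.13), Psmc3 (0.15 ± 0.12) and Psmd5 (0.23 ± 0.21) did not pass. The call of Psme2b was lost without Ac. The dendritic-cell check list had 480, 3774, 855 and 1656 CPM in these regulatory T cells. NK check markers (Klrk1, Klrd1, Gzma, Eomes and Tyrobp summed) had 120, 1123, 266 and 1981 CPM there in Ac, C, aC+C and IgG. In non-cycling CD8 T cells those NK markers had 1630 to 2099 CPM. The part of both lists in the Psme2 level of regulatory T cells was not tested.

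CD4 T cells without Foxp3 had Psme2b higher (0.58 ± 0.17) and Psme1 lower (-0.35 ± 0.09), the Psme2b call lost without any 1 of Ac, C and aC+C and the Psme1 call without Ac. Psmb5 had 168, 171, 171 and 163 CPM, against 186, 202, 234 and 191 CPM in CD8 T cells, a difference without overlap (-0.38 ± 0.09, edgeR adjusted p = 0.0028). Psmd14 (-0.40 ± 0.14), Psmd13 (-0.38 ± 0.10), Psma7 (-0.33 ± 0.08), Psmb1 (-0.29 ± 0.07), Psmb3 (-0.27 ± 0.09) and Psmb6 (-0.27 ± 0.09) were lower too, and Psme2 (0.16 ± 0.09), Psme3 (-0.07 ± 0.15), Psme4 (0.01 ± 0.16), Psmb7 (-0.08 ± 0.10), Psmc5 (0.08 ± 0.11), Psmc3ip (0.83 ± 0.54) and Psmd5 (0.25 ± 0.20) did not pass.

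NK cells differed from CD8 T cells in few members. Psmb2 had 197, 191, 204 and 191 CPM, against 148, 165, 185 and 168 CPM, without overlap (0.36 ± 0.09). Psme2b had 8.73 to 11.1 CPM, against 15.4 to 21.7 CPM (-0.70 ± 0.15). Psme3 (0.31 ± 0.11) and Psme4 (-0.32 ± 0.12) passed with overlapping values, the Psme3 call lost without C, without aC+C or under scaling by total UMIs and the Psme4 call lost without Ac or without IgG. Psme1 (0.15 ± 0.09), Psme2 (-0.13 ± 0.09), Psmb5 (0.09 ± 0.08), Psmb6 (0.04 ± 0.08), Psmb7 (-0.09 ± 0.08), Psmb1 (-0.17 ± 0.07), Psmd5 (0.30 ± 0.15), Psmc3ip (0.22 ± 0.43), Psmd8 (-0.20 ± 0.09) and Psmd9 (-0.19 ± 0.09) did not pass.

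In monocytes or macrophages Psme4, which encodes the PA200 activator, had 49.6 CPM (C) to 55.0 CPM (IgG), against 32.0, 22.2, 23.6 and 37.4 CPM in CD8 T cells of Ac, C, aC+C and IgG. The 2 gates did not overlap, and the CD8 T-cell values of C and aC+C were the low ones (0.91 ± 0.09, edgeR adjusted p = 4.3e-09). The alpha subunit Psma6 (0.55 ± 0.10), Psmc1 (0.45 ± 0.08), Psmd1 (0.45 ± 0.09) and Psmd2 (0.41 ± 0.08) were higher. Psmb1 had 264, 294, 284 and 279 CPM, against 486, 465, 484 and 434 CPM (-0.65 ± 0.07), and Psmd9 (-0.57 ± 0.08) and Psmb3 (-0.42 ± 0.08) were lower as well. Psme1 (0.06 ± 0.09), Psme2 (0.15 ± 0.09), Psme2b (0.22 ± 0.12), Psme3 (-0.04 ± 0.10), Psmd10 (-0.18 ± 0.09), Psmc3ip (-0.48 ± 0.39), Psmb5 (-0.06 ± 0.08) and Psmb6 (0.16 ± 0.08) did not pass, and the call of Psmb7 (0.16 ± 0.07) was lost without C, without IgG and under scaling by total UMIs. Of the transcription genes Nfe2l2 was higher by 3.62 ± 0.15 in these cells, with 244 to 316 CPM against 18.9 to 36.2 CPM.

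Stromal cells differed from CD8 T cells in both directions. The lid subunit Psmd7 had 248, 259, 286 and 217 CPM, against 62.3, 63.4, 78.8 and 78.5 CPM in CD8 T cells without overlap (1.60 ± 0.09, edgeR adjusted p = 2.6e-14). Psmd13, another lid subunit, went the other way with 53.8, 54.4, 58.9 and 59.6 CPM against 102.6, 103, 112 and 99.7 CPM (-1.11 ± 0.09). Among alpha subunits Psma5 (0.73 ± 0.09) and Psma6 (0.69 ± 0.10) were higher while Psma1 was lower, with 84.0, 85.0, 96.1 and 99.9 CPM against 147, 144, 173 and 153 CPM (-0.99 ± 0.09). Psmd5 (0.77 ± 0.14), Psmd1 (0.55 ± 0.09) and Psmc6 (0.54 ± 0.07) were higher and Psmb3 (-0.77 ± 0.09), Psmd8 (-0.70 ± 0.09) and Psmc4 (-0.59 ± 0.09) lower. Alpha and lid subunits thus passed in both directions in this gate, where 35.8% of all genes were called higher and 38.1% lower. The members, with 13 of 40 higher and 15 lower, were near those shares.

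The activators of stromal cells were lower with 1 exception. Psme3 had 23.8, 31.5, 22.0 and 31.5 CPM, against 40.0, 39.5, 35.2 and 47.1 CPM (-0.82 ± 0.12), Psme1 was lower (-0.48 ± 0.09), as were Psme2b (-0.47 ± 0.14) and Psme2 (-0.31 ± 0.09), the last losing its call under scaling by total UMIs and without IgG. Psme4 was higher (0.48 ± 0.11). Psmb5 was called lower after TMM scaling (-0.22 ± 0.08) although its CPM was the same in both gates, 203.4 against 203.3, and its log2 fold change turned to 0.01 under scaling by total UMIs. Psmb6 (0.16 ± 0.08) and Psmb7 (-0.07 ± 0.08) did not pass.

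Between the treatment groups there is 1 library each, so no test was possible, and a member was marked when its CPM was at least 25% higher or 20% lower than in IgG, with at least 200 UMIs over both libraries. The intervals are exact 95% binomial ones and cover counting error only. The comparisons with IgG share that library, and a library effect cannot be told apart from a treatment. The summed level of all members in non-cycling CD8 T cells was 5823, 5795 and 6153 CPM for Ac, C and aC+C, against 5747 CPM in IgG, so that the aC+C sum was 1.07 times that of IgG (1.05 to 1.09). In NK cells the sums were 1.00, 1.01 and 1.06 times and in monocytes or macrophages 0.932, 1.02 and 1.01 times those of IgG for Ac, C and aC+C.

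**Figure D5:**
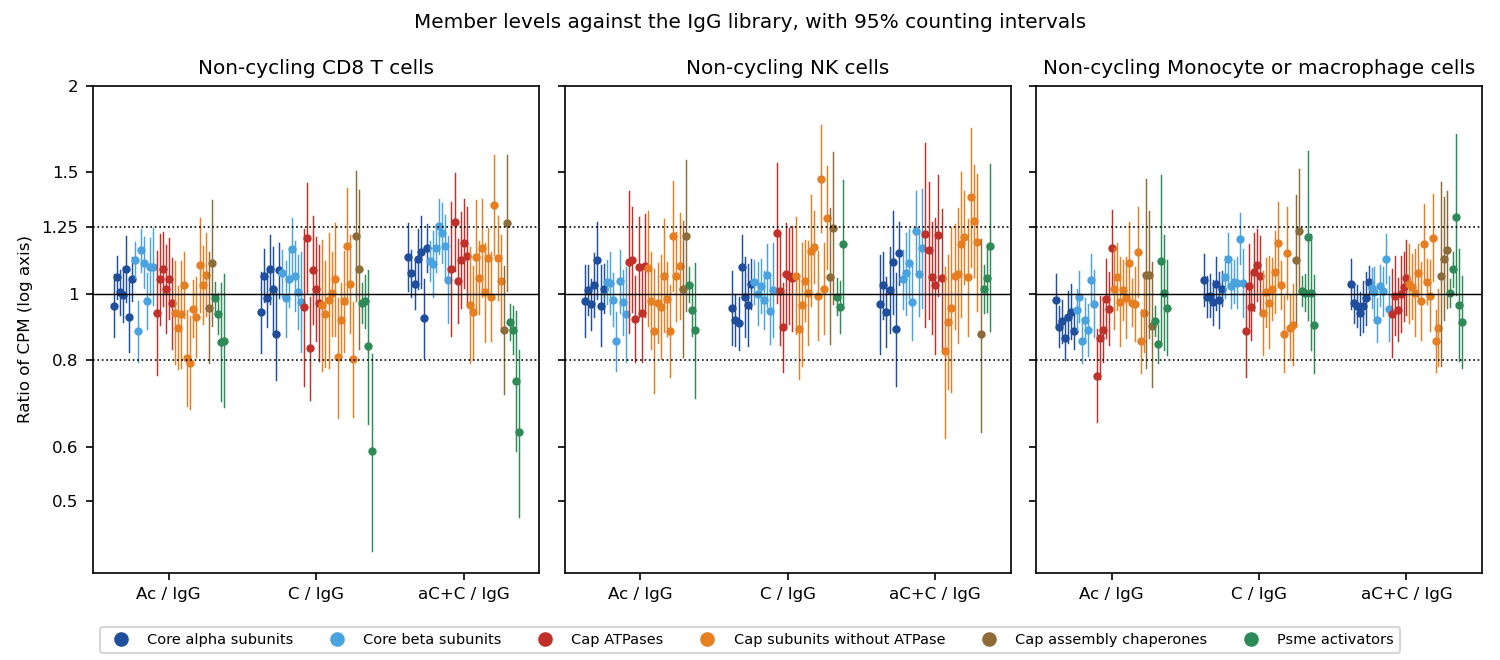
Ratio of CPM to IgG (log axis) of each compared subunit, chaperone and activator in Ac, C and aC+C, with 95% counting intervals, in non-cycling CD8 T, NK and monocyte or macrophage cells; dotted lines mark those limits. Most points lie between those lines, and Psme4 in CD8 T cells of C (0.592) and aC+C (0.630) lies lowest.

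In non-cycling CD8 T cells of aC+C 4 of 37 compared members were marked higher and 2 lower, where 5.62% of 4219 genes were marked higher and 25.1% lower. The proteasome members stood at a median ratio of 1.12, against 0.94 over all genes. Psmd12 (87.6 CPM against 65.2 CPM in IgG, ratio 1.34, 1.14 to 1.59), Psmc2 (1.27), Psmd10 (1.27), Psmb4 (274 CPM against 219 CPM) and Psmb5 (1.22, 1.11 to 1.35) were the highest. Psme4 (23.6 CPM against 37.4 CPM, ratio 0.630, 0.475 to 0.83), Psme3 (0.748, 0.591 to 0.943), Psme2 (0.885), Psmd9 (0.887) and Psme1 (0.909) were the lowest, so 4 of the 5 lowest were activators.

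In C 0 of 37 members were marked higher and 1 lower, where 3.97% of 3907 genes were marked higher and 10% lower. That member was Psme4, with 22.2 CPM against 37.4 CPM in IgG (51 and 155 UMIs, ratio 0.592, 0.423 to 0.817); Psmd14 (0.804), Psmd7 (0.809), Psmc3 (0.834) and Psme3 (0.84) were next, and Psmd9 (1.21), Psmc2 (1.20), Psmd12 (1.17), Psmb4 (1.16) and Psmd10 (1.09) highest. In Ac 0 were marked higher and 1 lower, where 5.52% of 4979 genes were marked higher and 12.7% lower. It was Psmd7 (62.3 CPM against 78.5 CPM, ratio 0.795, 0.681 to 0.928), followed by Psmd6 (0.807), Psme3 (0.85), Psme4 (0.855) and Psmb2 (0.881), while Psmb3 (1.16), Psmb1 (1.12), Psmb4 (1.11), Psmd10 (1.11) and Psmd12 (1.10) were highest. Psme3 and Psme4 thus lay below IgG in the non-cycling CD8 T cells of all 3 other libraries, which share that IgG sample. So did Psme1, Psme2, Psma6, Psmd1, Psmd2 and Psmd11. Of all genes compared there, 43.5%, 44.0% and 39.3% lay above IgG in Ac, C and aC+C. In the other gates Psme3 lay on both sides of IgG: in NK cells it was at 0.885 in Ac, 1.18 (0.955 to 1.46) in C and 1.17 (0.883 to 1.54) in aC+C, and in monocytes or macrophages its ratios were 1.001, 1.004 and 0.962. Psme4 had ratios of 0.954, 0.902 and 0.909 in monocytes or macrophages and fewer than 200 UMIs over both libraries in NK cells. Psme1 and Psme2 ranged from 0.947 to 1.05 in NK cells and from 0.845 to 1.08 in monocytes or macrophages.

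The cycling CD8 T cells gave a second set of cells from the same libraries. In aC+C 2 of 39 members were marked higher and 2 lower (4.87% of 5913 genes higher, 17.1% lower), in C 1 and 0 (5.06% and 5.49% of 5279) and in Ac 1 and 0 (4.58% and 5.85% of 5832). Psme3 was at 0.764 (0.660 to 0.884) and Psme4 at 0.767 (0.621 to 0.946) in aC+C, the 2 lowest there, before Psmd3 (0.917), Psme2 (0.921) and Psme1 (0.924). Psmd7 at 1.29 (1.16 to 1.43) was marked higher in aC+C, and Psmc3ip was the highest in each comparison, with ratios of 1.36, 1.54 and 1.34 for Ac, C and aC+C. In C Psme4 (0.816), Psmd3 (0.822), Psmb3 (0.868), Psmd9 (0.883) and Psmd6 (0.911) were lowest and Psmd12 (1.13), Psmd5 (1.12), Psmb2 (1.09) and Psmd2 (1.08) came after Psmc3ip. In Ac Psme2 (0.867), Psmd3 (0.872), Psme1 (0.875), Psmd7 (0.895) and Psme3 (0.896) were lowest, and Psmd14 (1.16), Psmc2 (1.14), Psmd5 (1.14) and Psmd12 (1.12) came after Psmc3ip.

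In NK cells 0 members were marked in Ac (3.44% of 3956 genes higher, 2.93% lower), 2 higher in C (4.39% and 5.32% of 3853) and 2 higher in aC+C (5.86% and 8.77% of 2920). Psmd12 was the highest in C at 1.47 (83.4 CPM against 56.9 CPM, 1.23 to 1.76) and in aC+C at 1.38 (1.09 to 1.74), and Psmd14 at 1.29 in C and Psmd13 at 1.28 in aC+C were the other marked ones. Psmd10 (1.21), Psmd12 (1.21), Psmc2 (1.12), Psma5 (1.12) and Psmc1 (1.11) were highest in Ac, where Psmb4 (0.853), Psmd11 (0.883), Psmd3 (0.883), Psme3 (0.885) and Psmc3 (0.919) were lowest. The lowest were Psmd2 (0.888), Psmc3 (0.894), Psma3 (0.906), Psma2 (0.916) and Psmb6 (0.943) in C and Psmd1 (0.826), Psmd9 (0.875), Psma6 (0.889), Psmd2 (0.911) and Psma3 (0.941) in aC+C.

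In monocytes or macrophages 1 member was marked lower in Ac (6.73% of 6289 genes higher, 7.71% lower), 0 in C (6.83% and 10.3% of 6014) and 1 higher in aC+C (8.17% and 10.5% of 6655). Psmc1 was the lower one, with 46.3 CPM in Ac against 60.9 CPM in IgG (ratio 0.761, 0.652 to 0.890), and Psme2b the higher one (1.29, 0.994 to 1.70), whose interval holds 1. Next lowest in Ac were Psme2 (0.845), Psmd13 (0.854), Psmb3 (0.855) and Psma4 (0.863), and the highest there were Psmc6 (1.16), Psmd12 (1.15), Psme2b (1.12), Psmd7 (1.11) and Psmd9 (1.06). In C Psmd10 (1.23), Psme2b (1.21), Psmb6 (1.20), Psmd7 (1.18) and Psmd12 (1.14) were highest and Psmd11 (0.873), Psmc1 (0.882), Psmd13 (0.892), Psmd14 (0.901) and Psme4 (0.902) lowest. In aC+C Psmd12 (1.21), Psmd7 (1.18), Psmd10 (1.16) and Psmb6 (1.12) followed Psme2b, and Psmd13 (0.854), Psmd14 (0.892), Psme4 (0.909), Psmb3 (0.916) and Psmc1 (0.935) were lowest.

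Psmd12 had a ratio above 1 in all 9 comparisons of non-cycling cells, from 1.10 to 1.47. These comparisons share the IgG cells of each gate, which had 65.2 CPM in CD8 T cells, 56.9 CPM in NK cells and 58.2 CPM in monocytes or macrophages, the lowest of the 4 libraries in each gate. Psmb5 in CD8 T cells was at 1.22 in aC+C, with 234 CPM against 191 CPM in IgG, and in NK cells at 1.23 (1.08 to 1.41), with 226 CPM against 183 CPM, while it had 189 CPM against 187 CPM in monocytes or macrophages.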

How the data were processed

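The 4 mouse libraries comprise 1 per group. The deposited count matrices hold whole UMI counts per gene and barcode, not normalized and not filtered for cells. Per the submitters' processing notes Cell Ranger 2.1.1 was used with build mm10, while the matrix headers name software 3.0.2. From these counts, barcodes with at least 1000 UMIs and at most 10% mitochondrial UMIs were kept and gated on raw marker UMIs; total UMIs ran from 61519049 to 75665201 per library. UMIs were summed per library, gate and state. Sums were compared with edgeR 4.0.16 (R 4.3.3) by quasi-likelihood tests with library as a block, TMM factors and Benjamini-Hochberg adjustment over all genes passing filterByExpr, after a check on simulated data. DESeq2 1.42.0 was an alternative. SE is the size of the log2 fold change over the root of F. Ratios between libraries carry exact binomial intervals, computed with scipy 1.17.1. Genes were named by rule: all activators, Psmb5, Psmb6 and Psmb7, and the 5 highest and 5 lowest members of each comparison; other members, such as Psmd4 and Psmb1 in cycling CD8 T cells, were named after their values were seen. The members and lists were chosen with earlier results of these data known. Other settings tried were scaling, count filter, UMI and mitochondrial limits, state thresholds and leaving out each library. Psme2b, a near copy of Psme2, and members with pseudogenes may share reads, so their counts are uncertain. No sample column was left unused. Some genes of the lists are not reported here.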

Additional observations from a re-analysis of the deposited data

Results flagged for a closer look

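Of 172 groups of 4 libraries, 11 (6.40%) held a library whose gap to the others passed Dixon's 95% critical value; chance gives about 1 in 20 groups. In regulatory T cells IgG was low for the core alpha sum (1564 CPM, others 1748 to 1785) and the ATPase sum (476 CPM, others 546 to 552) and high for Psme2 (595 CPM, others 528 to 537), and C was high for Psme1 (740 CPM, others 584 to 608). The dendritic-cell check list was at 3774 CPM in that C library, the highest of the 4. The NK check markers were at 1981 CPM in regulatory T cells of IgG, also the highest of the 4. The part of both lists was not tested. In CD8 T cells C was high for the chaperone sum of non-cycling cells (123 CPM, others 103 to 106) and aC+C for the core beta sum of cycling cells (2210 CPM, others 2043 to 2058). In cycling monocytes or macrophages C was high for the core beta sum (1721 CPM, others 1509 to 1529) and for Psmb5 (215 CPM, others 188 to 189). In non-cycling ones Ac was low for Psme1 (521 CPM, others 571 to 576) and aC+C for Psme3 (36.1 CPM, others 37.5 to 37.6). In NK cells of aC+C Psmb8 made up 77.9% of Psmb8 and Psmb5 (others 79.9% to 80.2%).

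The effect of cycling differed between gates by a test of the difference itself, added after the data were seen. Against CD8 T cells it was higher in stromal cells (log2) by 0.66 for Psmd4, 0.53 for Psmb3, 0.50 for Psme2, 0.43 for Psma3, 0.41 for Psmc5, 0.40 for Psma5, 0.38 for Psma1, 0.35 for Psmd14, 0.34 for Psmc6, 0.32 for Psmc2, 0.31 for Psmd8 and 0.30 for Psmb4, where 2209 of 11929 genes passed. In monocytes or macrophages, where 881 of 11929 genes passed, the difference was -0.76 for Psma7, -0.57 for Psmd8, -0.50 for Psmb5, -0.49 for Psma4, -0.41 for Psmb6, -0.39 for Psmb3, -0.38 for Psmc6 and -0.33 for Psmb4. In NK cells, where 128 of 11929 genes passed, it was -0.59 for Psmc1. Depth and the level of Dcn differed between the stromal states, and their part in these differences was not tested.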

How the results depend on the processing

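Between treatments, no paired analysis was possible because each group has 1 library. The comparisons of states and gates were paired by library, as a block; without it 29 members instead of 32 were higher in cycling CD8 T cells. Counts below are members higher or lower; the cause of each move was not tested. With RLE size factors 1 was lower in NK cells and 5 in CD4 T cells against CD8 T cells. With total UMIs only, 17 were higher and 2 lower in cycling monocytes or macrophages and 2 lower in cycling stromal cells; against CD8 T cells the counts were 1 higher and 9 lower in NK, 7 and 1 in regulatory T, 2 and 2 in CD4 T and 20 and 7 in stromal cells, with 8 lower in monocytes or macrophages. Psmb5 in stromal cells turned to 0.0054 against -0.22. DESeq2 gave 6 higher in cycling monocytes or macrophages, 0 lower in cycling stromal cells (1 with edgeR) and 5 lower in CD4 T cells. Without the count filter 6 were higher in cycling monocytes or macrophages, 0 lower in cycling stromal, 1 lower in NK and 0 higher in CD4 T cells. Without that block 1 was lower in NK cells. With at least 5000 UMIs 1 was lower in NK, 0 higher and 4 lower in CD4 T cells. With at most 5% mitochondrial UMIs 6 were higher in cycling monocytes or macrophages, 2 lower in cycling stromal, 1 higher in NK, 7 lower in regulatory T and 0 higher in CD4 T cells. Without the 5% of barcodes with most UMIs 3 were higher in cycling monocytes or macrophages, 0 lower in cycling stromal and 1 lower in NK cells. With barcodes of 10000 to 30000 UMIs, 1 was lower in cycling CD8 T, 12 higher in cycling NK, 2 higher in cycling monocytes or macrophages, and 3 higher and 0 lower in cycling stromal cells; against CD8 T cells 1 was higher and 0 lower in NK, 1 higher and 2 lower in regulatory T, 1 lower in CD4 T, 10 higher in monocytes or macrophages and 8 higher in stromal cells.

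Leaving out each library gave, for cycling cells, 31 to 32 higher in CD8 T, 14 to 21 higher and 0 to 1 lower in NK, 5 to 9 higher and 2 to 5 lower in monocytes or macrophages, and 34 to 35 higher and 0 to 1 lower in stromal cells. Against CD8 T cells it gave 1 to 2 higher and 1 to 2 lower in NK, 1 to 2 and 2 to 7 in regulatory T, 0 to 1 and 3 to 7 in CD4 T, 10 to 17 higher in monocytes or macrophages, and 9 to 12 lower in stromal cells.

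Members past the fold against IgG in non-cycling CD8 T cells became 0 in Ac with at least 5000 UMIs or a fold of 1.5, 2 in C without the deepest barcodes or with the mean of each cell's CPM and 3 with 5% background removed, and 1 in aC+C at 1.5-fold. In NK cells they became 1 in Ac with at least 5000 UMIs; 4 in C with at least 5000 UMIs, 1 without the deepest barcodes or by cell means and 0 at 1.5-fold; and 1 in aC+C with at most 5% mitochondrial UMIs or without the deepest barcodes, 4 by cell means and 0 at 1.5-fold. In monocytes or macrophages they became 0 in Ac at 1.5-fold, 1 in C under 6 settings (at least 5000 UMIs, at most 5% mitochondrial UMIs, without the deepest barcodes, without mitochondrial and ribosomal protein genes in the total, by cell means, with background removed), and 0 in aC+C without the deepest barcodes, by cell means or at 1.5-fold. In cycling CD8 T cells they became 2 in Ac without the deepest barcodes and 0 at 1.5-fold, 2 in C with at most 5% mitochondrial UMIs or by cell means and 0 without the deepest barcodes, and 0 in aC+C at 1.5-fold.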
